A study of Homo sapiens with 12 samples.

Results

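The endothelial to hematopoietic transition (EHT) of unedited human cells was described from 4 RNA-Seq libraries, 2 of hemogenic endothelial cells (HEs) and 2 of hematopoietic progenitor cells (HPCs), out of 12 samples in the series. All 4 came from wild-type (WT) H1, an established human embryonic stem cell line, differentiated on OP9, a mouse bone marrow stromal line. HEs were sorted on day 8 as CD34+CD31+CD43- and HPCs on day 9 as CD34+CD43+. Both sorts followed an enrichment of CD34+ cells and used TRA-1-85 as the mark of human cells. The same stages were also taken from H1-*GATA2*-/- (KO) cells, in which a neomycin resistance cassette was put into a *GATA2* exon. Their stage change is set beside that of WT cells. These KO libraries and those of undifferentiated KO hESCs also entered the fit, so they share in the spread behind the WT p-values. The WT hESC libraries were not analysed here. Stage, day and sort gate changed together, so they cannot be told apart, and all libraries come from 1 cell line. The labels number the replicates without saying that they were separate cultures, and p-values therefore measure only the spread between these libraries.

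During EHT a specialised endothelial cell leaves the vessel wall, loses its junctions to neighbouring cells and rounds up as a free blood progenitor. Endothelial identity is kept by ETS and SOXF transcription factors with VEGF and Notch signalling, while RUNX1, with its partner CBFB and the repressors GFI1 and GFI1B, drives the change, and GATA and SPI1 factors then direct red cell, platelet and myeloid fates. The first blood cells made from human embryonic stem cells resemble those of the yolk sac, in which embryonic and fetal globins are the rule.

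Expression was given for 56266 genes as TPM, a transcript's share of the library corrected for gene length. Of these genes, 17113 reached 1 TPM in 2 or more of the 4 WT libraries. TPM does not keep the number of reads, so the depth of a library is unknown. Between 16004 and 17043 genes per WT library reached a TPM of 1. Pearson's r of log2(TPM + 1) over all genes was 0.9705 between the HE libraries, 0.9636 between the HPC libraries and 0.939 to 0.945 between stages, which describes the libraries and is across genes that are not independent. The highest transcript in both stages was *EEF1A1*, a translation elongation factor, with 13039 and 12380 TPM in HEs and 13958 and 13649 in HPCs. Mitochondrial genes took 6.82% and 6.29% of TPM in HEs and 8.66% and 9.61% in HPCs.

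Between WT HEs and WT HPCs, 2420 of the 17113 genes (14.1%) passed an adjusted p of 0.05 in limma, of which 823 (4.81%) rose and 1597 (9.33%) fell in HPCs. The fall was also the commoner direction among large changes, as 635 genes fell and 277 rose by at least 2 on the log2 scale. The excess of falls among all calls depended on normalization. After quantile normalization 1117 genes rose and 1498 fell, and after median centring 1037 rose and 1583 fell. With TPM rescaled without globin and mitochondrial genes, 872 rose and 1460 fell. Over all genes tested the median log2 fold change was -0.04 and the median standard error (SE) 0.35. Fold changes here are differences of mean log2(TPM + 1), HPC minus HE, and understate the change of genes with low TPM. The count depended on single libraries, each test without one assuming that the lone library of that stage varied like the other groups. It was 1303 without HE replicate 1, 1144 without HE replicate 2, 1195 without HPC replicate 2 and 1778 without HPC replicate 1, the last with 396 genes that rose. Of the tested genes, 1192 reached a TPM of 1 in both libraries of 1 stage only and so entered the test because they differed.

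**Figure D1:**
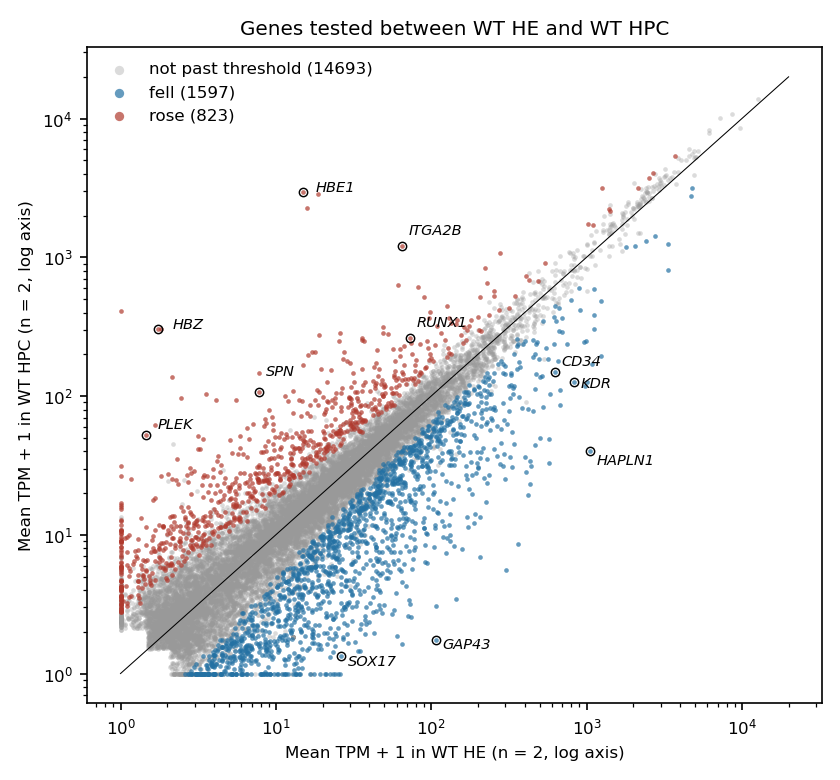
Mean TPM + 1 of each of the 17113 tested genes in WT HEs (x axis) and WT HPCs (y axis), both on log axes, n = 2 libraries each. Red genes rose (823), blue genes fell (1597) and grey genes did not pass the threshold; the line marks equal values and open circles mark the genes written beside them, with globins such as *HBE1* far above the line and *GAP43* and *SOX17* far below it.

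The largest falls were led by *GAP43*, a growth-associated membrane protein best known from nerve growth cones, with 108 and 105 TPM in HEs and 1.06 and 0.450 in HPCs (log2 fold change -5.96, SE 0.30, adjusted p = 2.56e-05). *RAMP2*, the partner that makes the calcitonin-like receptor of endothelium respond to adrenomedullin, had 256 and 349 TPM in HEs and 5.38 and 3.81 in HPCs (log2 fold change -5.76, SE 0.32, adjusted p = 2.91e-05). Both fell to a few TPM from levels over 100 in each HE library. *HAPLN1*, which links hyaluronan to proteoglycans in the matrix, was the highest of the 15 largest falls, with 1064 and 1038 TPM in HEs and 56.2 and 21.6 in HPCs (log2 fold change -4.87, SE 0.47, adjusted p = 0.000178). *SOST*, a secreted inhibitor of WNT signalling known from bone, had 384 and 339 TPM in HEs and 12.2 and 3 in HPCs (log2 fold change -5.64, SE 0.47, adjusted p = 0.0001). *NT5E* (CD73), an ectoenzyme that makes adenosine, had 56.02 and 72.1 TPM in HEs and 0.350 and 0.910 in HPCs (log2 fold change -5.33, SE 0.32, adjusted p = 2.91e-05). The rest of the 15 were *FCN3*, *COL3A1*, *LPL*, *ELTD1*, *EMP1*, *COL5A2*, *TM4SF18*, *TMEM255B*, *EDN1* and *OIT3*. *EDN1*, the vasoconstrictor peptide endothelin of endothelial cells, was listed at 0 in both HPC libraries after 21.0 and 25.2 TPM in HEs. Of the 15, *NT5E*, *EDN1*, *TMEM255B* and *OIT3* passed the filter through HEs only and so entered the test because they differed.

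Among the 15 largest rises, 8 were globin genes or a globin pseudogene. The largest fold change of the other 7 was that of *COL24A1*, a fibrillar collagen gene, with 0.540 and 0.800 TPM in HEs and 50.6 and 70.6 in HPCs (log2 fold change 5.19, SE 0.37, adjusted p = 4.71e-05). *PLEK*, the protein kinase C substrate of platelets and leukocytes, followed with 0.520 and 0.390 TPM in HEs and 40.4 and 62.98 in HPCs (log2 fold change 5.15, SE 0.59, adjusted p = 0.000382). *HDC*, the enzyme that makes histamine and is found in mast cells and basophils, had 2.92 and 2.17 TPM in HEs and 96.7 and 107 in HPCs (log2 fold change 4.87, SE 0.42, adjusted p = 0.00011). *TYROBP*, the signalling adaptor of myeloid and natural killer receptors, had 3.85 and 9.66 TPM in HEs and 124 and 167 in HPCs (log2 fold change 4.33, SE 0.46, adjusted p = 0.00026). *SLC37A1*, *FYB* and *LY6G6F* made up the 15. Of these, *HBA2*, *COL24A1*, *PLEK* and *FYB* passed the filter through HPCs only and so entered the test because they differed. *LY6G6F* lies among neighbouring LY6 family genes whose reads may be shared, so its level is less certain.

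The gene lists and their members were chosen with earlier results of these data known. Their shares beside those over all genes are therefore only descriptive, and genes such as *ERG* and *PLEK* are in more than 1 list. Of the 20 gene lists examined, endothelial identity genes fell in the largest share. Of 28 listed genes, 27 had a row and were tested, and *PECAM1* (CD31) was not analysed here. Of the 27, 1 gene, *SOX17*, passed the filter through HEs only and so entered the test because it differed. In all, 26 of the 27 fell and 0 rose, against 9.33% that fell over all genes, and the median log2 fold change was -2.72. *KDR*, the main VEGF receptor, had 839 and 820.05 TPM in HEs and 168 and 83.9 in HPCs (log2 fold change -2.80, SE 0.32, adjusted p = 0.000357). *CDH5*, the cadherin that holds endothelial cells together, had 514 and 538 TPM in HEs and 110.45 and 53.9 in HPCs (log2 fold change -2.75, SE 0.36, adjusted p = 0.000801). HPC replicate 2 was lower than replicate 1 for both, and the summed TPM of the list was 7435 and 7729 in HEs and 2037 and 1407 in HPCs. *SOX17*, a SOXF factor of arterial and hemogenic endothelium, was nearly lost, with 27.1 and 23.6 TPM in HEs and 0.510 and 0.160 in HPCs (log2 fold change -4.31, SE 0.42, adjusted p = 0.000182). *SOX7* had 142 and 109 TPM in HEs and 14.1 and 2.88 in HPCs, and *SOX18* kept more of its level with 40.9 and 39.5 TPM in HEs and 11.4 and 5.79 in HPCs. The orphan receptor gene *ELTD1* and the membrane lectin gene *CLEC14A* were also near 0 in HPCs, with 1.52 and 0.220 TPM and 2.37 and 0.340 TPM.

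Other endothelial transcripts fell yet stayed well expressed in the CD43+ cells. *EGFL7*, a secreted factor of endothelium, had 1094 and 1377 TPM in HEs and 529.67 and 444 in HPCs (log2 fold change -1.34, SE 0.16, adjusted p = 0.000417). *TIE1*, an orphan receptor tyrosine kinase, had 464 and 521 TPM in HEs and 189 and 178 in HPCs (log2 fold change -1.42, SE 0.16, adjusted p = 0.000308). *ESAM*, an adhesion molecule of endothelium and platelets, had 589.76 and 530.28 TPM in HEs and 199.88 and 169.54 in HPCs (log2 fold change -1.60, SE 0.24, adjusted p = 0.00161). In these bulk samples fewer cells of a type and less RNA per cell cannot be told apart. *LYVE1*, a lymphatic marker, was the 1 tested gene of the list that did not fall, with 1.04 and 1.15 TPM in HEs and 1.31 and 1.78 in HPCs.

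Arterial and Notch pathway genes fell in part. Of 22 tested genes, 13 fell and 0 rose, against 9.33% and 4.81% over all genes, with a median log2 fold change of -1.88. Of the 22, 2 passed the filter in 1 stage only. The ligand gene *DLL4* had 44.8 and 58.5 TPM in HEs and 5.44 and 2.29 in HPCs (log2 fold change -3.50, SE 0.48, adjusted p = 0.000944), and the ligand gene *JAG2* had 57.1 and 51.4 TPM in HEs and 14.7 and 3.28 in HPCs (log2 fold change -2.75, SE 0.47, adjusted p = 0.00368). Among receptors, *NOTCH4*, the endothelial member, had 44.4 and 54.2 TPM in HEs and 7.54 and 3.10 in HPCs (log2 fold change -3.08, SE 0.42, adjusted p = 0.000952). *NOTCH1* fell less, with 92.3 and 83.4 TPM in HEs and 45.03 and 24.5 in HPCs (log2 fold change -1.37, SE 0.27, adjusted p = 0.00691). The Notch target *HEY1* had 63.6 and 78.6 TPM in HEs and 8.41 and 4.97 in HPCs (log2 fold change -3.26, SE 0.34, adjusted p = 0.000257), while *HES1*, another target, was not past the threshold with 96.9 and 153 TPM in HEs and 219 and 103 in HPCs. The venous factor gene *NR2F2* fell as well, with 28.9 and 44.3 TPM in HEs and 0.790 and 1.05 in HPCs (log2 fold change -4.26, SE 0.41, adjusted p = 0.000178). The gap junction genes *GJA4* and *GJA5*, which mark arteries, did not pass the threshold, with 70.3 and 119 TPM in HEs and 65.8 and 62.3 in HPCs for *GJA4* and 82.5 and 50.3 TPM in HEs and 46.4 and 32.4 in HPCs for *GJA5*. With 1 library left out, the call was lost for *NOTCH1* without HE replicate 1 (adjusted p = 0.0581).

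Genes of the attachment of endothelial cells to each other and to their matrix fell with them. Of 20 tested junction and caveola genes 13 fell, and of 22 tested basement membrane and matrix genes 16 fell, with medians of -1.23 and -1.97. Over all genes 9.33% fell and 4.81% rose, and 1 matrix gene passed the filter in 1 stage only. Fibronectin (*FN1*) had 486 and 652 TPM in HEs and 43.1 and 20.7 in HPCs (log2 fold change -4.19, SE 0.30, adjusted p = 5.52e-05). *COL4A1* and *COL4A2*, the chains of the collagen of basement membranes, had 405 and 404 TPM in HEs and 33.6 and 20.9 in HPCs and 531 and 475 TPM in HEs and 65.4 and 32.99 in HPCs. *COL3A1* was the largest matrix fall, with 229 and 179.78 TPM in HEs and 9.85 and 1.93 in HPCs (log2 fold change -5.18, SE 0.49, adjusted p = 0.000166). *CAV1*, the main caveola protein, had 32.3 and 50.96 TPM in HEs and 1.46 and 0.460 in HPCs (log2 fold change -4.46, SE 0.66, adjusted p = 0.00156). *JAM3*, a junctional adhesion molecule, had 347 and 335 TPM in HEs and 57.6 and 31.3 in HPCs (log2 fold change -2.97, SE 0.25, adjusted p = 0.000106). The junction anchors *CTNNA1* and *CTNNB1* (alpha- and beta-catenin) fell less, with 344 and 307 TPM in HEs and 153 and 128 in HPCs for *CTNNB1* (log2 fold change -1.21, SE 0.19, adjusted p = 0.00235). *COL18A1* did not pass the threshold, with 353 and 273 TPM in HEs and 387 and 268 in HPCs. Exceptions that rose were *MMRN1*, a protein stored in platelets and endothelium, with 46.2 and 51.2 TPM in HEs and 129 and 100.20 in HPCs (log2 fold change 1.21, SE 0.20, adjusted p = 0.00307), and *SDPR* (cavin 2), also known from platelets, with 28.3 and 32.4 TPM in HEs and 71.5 and 68.9 in HPCs (log2 fold change 1.19, SE 0.23, adjusted p = 0.00677). The threshold was missed by *CTNNA1* without HE replicate 1, HE replicate 2 or HPC replicate 2 (adjusted p 0.0503 to 0.0771) and *SDPR* without HE replicate 1 (adjusted p = 0.0592).

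Integrins, the receptors for matrix and for other cells, changed in both directions. Of 18 tested genes, 2 of which passed the filter in 1 stage only, 6 fell and 4 rose, with a median of -0.49. Over all genes 9.33% fell and 4.81% rose. *ITGA5*, the fibronectin receptor chain, had 363 and 301 TPM in HEs and 74.6 and 33.4 in HPCs (log2 fold change -2.70, SE 0.31, adjusted p = 0.000381). *ITGA3*, a laminin receptor chain, had 116 and 119 TPM in HEs and 15.2 and 2.17 in HPCs (log2 fold change -4.05, SE 0.57, adjusted p = 0.00123). *ITGB1*, the beta chain that both pair with, had 499 and 448 TPM in HEs and 157 and 129 in HPCs (log2 fold change -1.73, SE 0.18, adjusted p = 0.000251). *ITGB5*, *ITGAV* and *ITGA1* fell too. In the other direction, *ITGA2B* and *ITGB3*, which together form the platelet fibrinogen receptor, had 69.1 and 59.01 TPM in HEs and 1147 and 1258 in HPCs and 17.6 and 10.2 TPM in HEs and 171 and 161 in HPCs (log2 fold change 4.21, SE 0.33, adjusted p = 7.49e-05; log2 fold change 3.54, SE 0.38, adjusted p = 0.000286). The leukocyte integrin genes *ITGA4* and *ITGAL* rose from low levels, with 4.14 and 4.61 TPM in HEs and 9.83 and 15.2 in HPCs and 1.68 and 0.0800 TPM in HEs and 11.98 and 3.49 in HPCs. Without HE replicate 2 or HPC replicate 1, 2 of the list rose. The call was not kept by *ITGAV* without HE replicate 1 or HPC replicate 2 (adjusted p 0.0541 to 0.0572), *ITGA1* without any 1 of the 4 libraries (adjusted p 0.0521 to 0.131), *ITGA4* without any 1 of the 4 libraries (adjusted p 0.0579 to 0.225) and *ITGAL* without HE replicate 2 or HPC replicate 1 (adjusted p 0.226 to 0.246).

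Of 23 tested TGF-beta and BMP pathway genes, 9 fell and 1 rose, with a median of -0.83. In this list 39.1% fell and 4.35% rose, against 9.33% and 4.81% over all genes. Among ligands, *BMP4* had 23.97 and 22.98 TPM in HEs and 1.40 and 2.04 in HPCs (log2 fold change -3.18, SE 0.58, adjusted p = 0.00487). Among receptors, *ACVRL1* (ALK1), the endothelial type I receptor, had 90.9 and 119 TPM in HEs and 11.4 and 10.2 in HPCs (log2 fold change -3.16, SE 0.24, adjusted p = 7.39e-05). *TGFBR3* had 24.2 and 35.4 TPM in HEs and 2.28 and 0.480 in HPCs. None of the 7 SMAD genes passed the threshold, and the inhibitory *SMAD6* had 71.6 and 80.5 TPM in HEs and 37.98 and 31.7 in HPCs (adjusted p = 0.0557). The target *ID3* had 373 and 496 TPM in HEs and 43.9 and 22.04 in HPCs (log2 fold change -3.75, SE 0.32, adjusted p = 0.000106), whereas *ID2* was not past the threshold with 137 and 170.27 TPM in HEs and 190.32 and 203 in HPCs. *LTBP1*, which binds latent TGF-beta, was the gene that rose, with 16.98 and 19.4 TPM in HEs and 38.5 and 42.9 in HPCs. When single libraries were removed, the threshold was missed by *LTBP1* without HE replicate 1 or HPC replicate 2 (adjusted p 0.0516 to 0.0553).

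HOX genes and their cofactors also parted. Of 23 listed genes 15 were tested, 3 of them, including *HOXA9*, by reaching the filter in 1 stage only. Of the 15, 9 fell and 2 rose, against 9.33% and 4.81% over all genes. *HOXA9*, a factor of definitive blood stem cells, was listed at 0 in both HPC libraries after 12 and 6.64 TPM in HEs. *HOXB8* had 49.4 and 41.2 TPM in HEs and 8.79 and 2.52 in HPCs (log2 fold change -2.97, SE 0.68, adjusted p = 0.0161), and *HOXB4*, known for the expansion of blood stem cells, did not pass the threshold with 6.73 and 8.74 TPM in HEs and 8.83 and 6.26 in HPCs. *MEIS1*, a HOX cofactor, rose with 35.3 and 32.3 TPM in HEs and 53.8 and 57.1 in HPCs. Of 15 tested mesenchymal genes, 2 of which, including *LUM*, passed the filter in 1 stage only, 6 fell and 1 rose, with a median of -1.31. These counts stand beside the same 9.33% and 4.81%. *THY1* had 448 and 423 TPM in HEs and 35.9 and 25.1 in HPCs (log2 fold change -3.82, SE 0.41, adjusted p = 0.000276), *SNAI2*, a factor of epithelial to mesenchymal transition, did not pass the threshold with 13.8 and 14.2 TPM in HEs and 7.71 and 2.57 in HPCs, and *LUM* was listed at 0 in both HPC libraries after 22.9 and 13.4 TPM in HEs. *POSTN* was the gene that rose, with 2.10 and 0.720 TPM in HEs and 12.2 and 7.07 in HPCs. Of the HOX list, 0 rose without any 1 library, 2 fell without either HE replicate and 4 without HPC replicate 2, and of the mesenchymal list 3 fell without HE replicate 2. A single library ended the call of *HOXB8* without HE replicate 1, HE replicate 2 or HPC replicate 2 (adjusted p 0.0842 to 0.146), *MEIS1* without any 1 of the 4 libraries (adjusted p 0.103 to 0.212) and *POSTN* without HE replicate 2, HPC replicate 1 or HPC replicate 2 (adjusted p 0.0504 to 0.142).

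**Figure D2:**
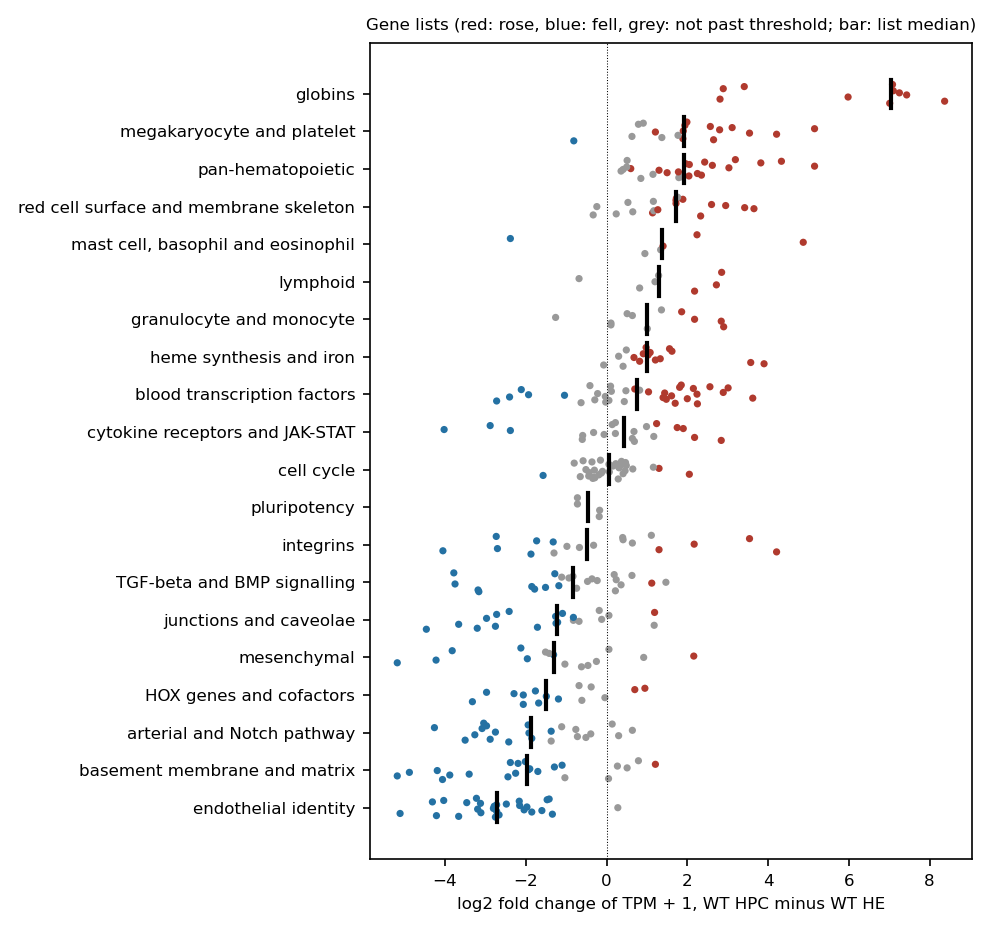
Log2 fold change of TPM + 1 (WT HPCs minus WT HEs, x axis) of each tested gene in 20 gene lists (y axis), ordered by the list median (black bar). Red points rose, blue points fell and grey points did not pass the threshold; the medians run from -2.72 for endothelial identity to 7.05 for globins, and over all genes tested the median was -0.04.

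Of 34 tested genes of the blood transcription factor list, 17 rose and 5 fell, against 4.81% and 9.33% over all genes. The median log2 fold change was 0.76. The list includes *HMGA2*, a chromatin protein gene, and *LIN28B*, an RNA-binding protein gene. *RUNX1*, the factor that drives EHT, had 77.9 and 65.9 TPM in HEs and 327 and 198 in HPCs (log2 fold change 1.81, SE 0.46, adjusted p = 0.025). *CBFB*, its partner, did not pass the threshold with 44.7 and 47.1 TPM in HEs and 38.3 and 22.4 in HPCs. The repressor gene *GFI1B* had 45.8 and 36.6 TPM in HEs and 124 and 131 in HPCs (log2 fold change 1.61, SE 0.28, adjusted p = 0.00388), while *GFI1* was not past the threshold with 33.6 and 23 TPM in HEs and 37.4 and 19.6 in HPCs. *MYB*, needed for definitive progenitors, had 26.5 and 14.5 TPM in HEs and 103 and 80.4 in HPCs (log2 fold change 2.15, SE 0.34, adjusted p = 0.00211). Of the list, 10 genes rose without HE replicate 2 or HPC replicate 1 and 11 without HE replicate 1 or HPC replicate 2, and 3 fell without any library but HPC replicate 1. With 1 library left out, the call was lost for *RUNX1* without any 1 of the 4 libraries (adjusted p 0.0641 to 0.168). It was also lost for *RUNX1* with a pseudocount of 0.1, without the filter on low genes or without a variance trend (adjusted p 0.0552 to 0.166).

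The largest rise of the list was that of *GATA1*. *GATA1*, the main red cell and megakaryocyte factor, had 18.4 and 12.1 TPM in HEs and 172 and 219.59 in HPCs (log2 fold change 3.62, SE 0.31, adjusted p = 0.000106). *NFE2*, which acts in platelet and globin expression, had 36.2 and 17.2 TPM in HEs and 209 and 206 in HPCs (log2 fold change 3.01, SE 0.45, adjusted p = 0.00168). *KLF1*, the activator of adult globin and other red cell genes, had 19.6 and 6.73 TPM in HEs and 89.6 and 96.1 in HPCs (log2 fold change 2.89, SE 0.54, adjusted p = 0.0059). *SPI1* (PU.1), the main myeloid factor, rose beside them, with 35.8 and 22.2 TPM in HEs and 195 and 151 in HPCs (log2 fold change 2.56, SE 0.40, adjusted p = 0.00226). *IKZF1* had 5.82 and 4.02 TPM in HEs and 26.97 and 26.5 in HPCs. *ZFPM1*, the GATA1 cofactor FOG1, had 12.4 and 6.32 TPM in HEs and 45.7 and 26.5 in HPCs, and both rose. The immediate early genes *FOS* and *FOSB* rose, with 116 and 143 TPM in HEs and 310.38 and 417 in HPCs for *FOS*, whereas *JUN* did not pass the threshold with 61.7 and 79.5 TPM in HEs and 59.2 and 60.4 in HPCs. The threshold was missed by *KLF1* without HE replicate 2 or HPC replicate 2 (adjusted p 0.0597 to 0.062), *ZFPM1* without HE replicate 2 or HPC replicate 1 (adjusted p 0.0689 to 0.0796) and *FOS* without HE replicate 1 or HPC replicate 2 (adjusted p 0.0896 to 0.107).

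*TAL1*, *LMO2*, *LYL1* and *FLI1*, factors shared by endothelium and blood, were high in both stages. *TAL1* had 189 and 157 TPM in HEs and 212 and 162 in HPCs. *FLI1* had 233 and 217 TPM in HEs and 203 and 167 in HPCs, with 95% intervals of the log2 fold change from -0.50 to 0.71 and from -0.69 to 0.12. *LMO2* had 198 and 188 TPM in HEs and 266 and 272 in HPCs, an interval from 0.02 to 0.94. *LYL1* had 154 and 175 TPM in HEs and 293 and 288 in HPCs, an interval from 0.07 to 1.57. *LMO2* and *LYL1* were higher, and *FLI1* lower, in both HPC libraries than in both HE libraries. Of all 17113 genes tested, 3947 were higher and 5085 lower in this way. None of the 4 passed the threshold, though *LYL1* did with only the 4 WT libraries in the fit (adjusted p = 0.0264), and the intervals show what change could be missed. The 5 genes of the list that fell were *ERG*, *GATA3*, *MECOM*, *HHEX* and *HMGA2*. *ERG*, an ETS factor of endothelium and stem cells, had 113 and 113 TPM in HEs and 18.6 and 14.3 in HPCs (log2 fold change -2.72, SE 0.32, adjusted p = 0.0004). *GATA3* had 31.01 and 28.7 TPM in HEs and 6.99 and 3.26 in HPCs (log2 fold change -2.40, SE 0.40, adjusted p = 0.00295) while *GATA2* rose, with 107 and 78.03 TPM in HEs and 290.08 and 204 in HPCs (log2 fold change 1.40, SE 0.34, adjusted p = 0.0221). The regulators of granulocytes and dendritic cells *CEBPE* and *IRF8* did not pass the filter. The call was not kept by *MECOM* without HE replicate 1, HE replicate 2 or HPC replicate 2 (adjusted p 0.0569 to 0.117), *HHEX* without HE replicate 1, HE replicate 2 or HPC replicate 2 (adjusted p 0.064 to 0.0803) and *GATA2* without any 1 of the 4 libraries (adjusted p 0.0578 to 0.156).

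**Figure D3:**
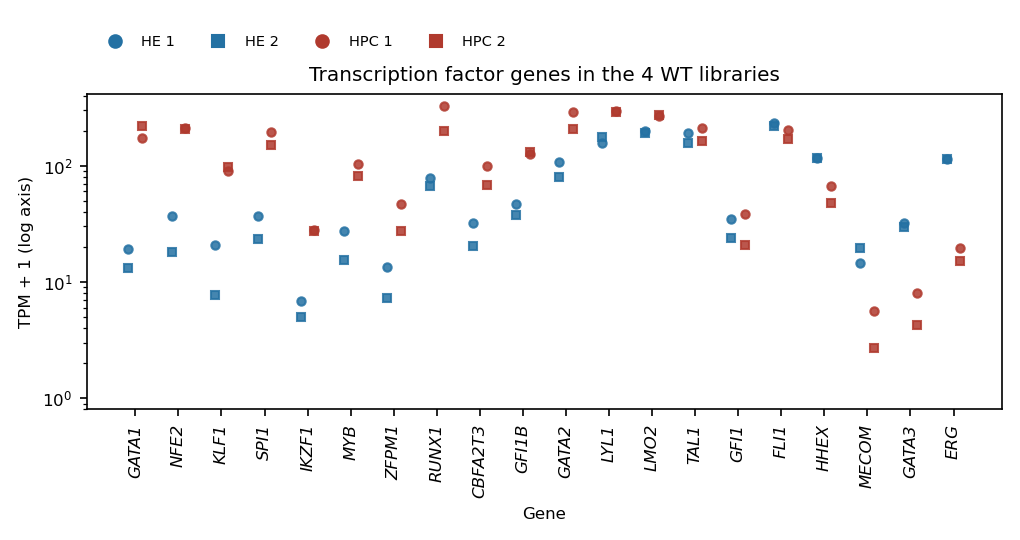
TPM + 1 (log axis) of 20 transcription factor genes (x axis) in each WT library, with HEs in blue and HPCs in red, circles for replicate 1 and squares for replicate 2. *GATA1*, at the left, stands at 18.4 and 12.1 TPM in HEs and 172 and 220 TPM in HPCs, the points of *TAL1* and *GFI1* overlap between stages, and *ERG*, at the right, is lower in HPCs.

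Promoters were searched for the core letters that such factors bind, in the window from 250 bases before to 50 from the start of the canonical transcript of 13080 tested protein-coding genes (GRCh37). The letters GATAA, on either strand, were in 19.1% of the windows of 655 genes that rose, 11.6% of those of 1445 genes that fell and 12.9% of all. TGTGGT, the core of RUNX sites, was in 13.4%, 8.17% and 8.69%. GAGGAA, the core of SPI1 sites, was in 32.2%, 29.5% and 26.9%. CACCC, searched for KLF factors, was in 71.9%, 67.8% and 64.5% and is not marked below. The median GC content of the windows was 66.0%, 69.7% and 66.3% in the same order, and its part in these shares was not tested. A match is a run of letters and not a shown binding site. The windows below were picked after the matches were seen, as examples from a heme enzyme, a red cell antigen and a myeloid receptor. Capitals mark the 3 motifs on either strand, and no 2 matches overlap in these windows.

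ALAS2 (chrX:55057361-55057660, minus strand; GATAA at -30 and, on the other strand, at -127 from the start): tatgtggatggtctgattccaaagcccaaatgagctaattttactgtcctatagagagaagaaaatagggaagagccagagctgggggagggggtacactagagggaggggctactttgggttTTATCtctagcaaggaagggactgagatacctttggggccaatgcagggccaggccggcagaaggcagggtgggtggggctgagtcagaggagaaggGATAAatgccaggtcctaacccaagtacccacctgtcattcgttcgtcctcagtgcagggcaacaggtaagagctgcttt
KEL (chr7:142659401-142659700, minus strand; GATAA at -61 and at -25): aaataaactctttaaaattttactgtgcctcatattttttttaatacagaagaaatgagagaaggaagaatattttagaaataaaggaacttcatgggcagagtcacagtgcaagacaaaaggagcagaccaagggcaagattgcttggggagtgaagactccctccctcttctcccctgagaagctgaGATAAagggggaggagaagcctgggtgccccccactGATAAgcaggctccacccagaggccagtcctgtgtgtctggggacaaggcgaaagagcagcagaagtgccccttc
CSF1R (chr5:149466068-149466367, minus strand; TGTGGT at -71 and GAGGAA at -20, -14 and 20): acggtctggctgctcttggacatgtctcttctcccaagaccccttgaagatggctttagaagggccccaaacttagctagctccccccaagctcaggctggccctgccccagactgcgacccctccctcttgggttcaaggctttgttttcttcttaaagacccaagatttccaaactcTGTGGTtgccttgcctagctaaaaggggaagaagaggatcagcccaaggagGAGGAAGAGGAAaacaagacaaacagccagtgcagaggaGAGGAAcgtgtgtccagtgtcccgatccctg

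*ALAS2*, *KEL* and *CSF1R* rose, with the values given beside their groups.

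*SPN*, which encodes the CD43 used for the gate, had 8.81 and 4.86 TPM in HEs and 104 and 108 in HPCs. *CD34*, positive in both gates, still fell, with 641 and 605 TPM in HEs and 181 and 114 in HPCs (log2 fold change -2.11, SE 0.22, adjusted p = 0.00026). *PTPRC* (CD45), the common leukocyte antigen, stayed under 1 TPM in all 4 libraries and was not tested. Pan-hematopoietic genes rose in 16 and fell in 0 of 24 tested, with a median of 1.91, against 4.81% that rose over all genes. The 16 include *SPN*, whose product the gates selected on, and *PLEK*, which passed the filter through HPCs only. *WAS*, the actin regulator of blood cells, had 8.24 and 4.11 TPM in HEs and 58.4 and 64.8 in HPCs (log2 fold change 3.19, SE 0.43, adjusted p = 0.000873). *PTPN6* (SHP-1), a phosphatase that damps receptor signals, had 29.02 and 26.5 TPM in HEs and 204 and 151 in HPCs (log2 fold change 2.62, SE 0.27, adjusted p = 0.000216). *RAC2*, the blood Rac GTPase, had 49.3 and 61.9 TPM in HEs and 215 and 219.83 in HPCs (log2 fold change 1.96, SE 0.32, adjusted p = 0.00272). Several genes of the list were already high in HEs. *LAPTM5*, a lysosomal protein of blood cells, rose with 262 and 282 TPM in HEs and 437 and 392 in HPCs (log2 fold change 0.60, SE 0.15, adjusted p = 0.0258). *VAV1*, a signalling protein of blood cells, did not pass the threshold with 76.9 and 67.5 TPM in HEs and 120.25 and 87.7 in HPCs, and *FERMT3* (kindlin 3), the integrin activator of blood cells, rose from such a level with 234 and 223 TPM in HEs and 686 and 614 in HPCs (log2 fold change 1.5, SE 0.31, adjusted p = 0.0093). Between 8 and 10 genes of the list rose when any 1 library was left out. When single libraries were removed, the threshold was missed by *LAPTM5* without any 1 of the 4 libraries (adjusted p 0.0597 to 0.141) and *FERMT3* without any 1 of the 4 libraries (adjusted p 0.0565 to 0.0705).

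Globin genes had the highest median fold change of the 20 lists. All 10 passed the filter, 2 of them in HPCs only, and 10 rose, against 4.81% over all genes. The median log2 fold change was 7.05. *HBE1*, the embryonic beta-like chain, had 15.3 and 12.7 TPM in HEs and 1496 and 4448 in HPCs (log2 fold change 7.43, SE 0.51, adjusted p = 3.93e-05). *HBG1* and *HBG2*, the near-identical fetal chains whose reads can be split between copies, summed to 16.8 and 20.3 TPM in HEs and 1674 and 4653 TPM in HPCs. *HBA1* and *HBA2*, likewise alike, summed to 20.9 and 9.06 TPM in HEs and 1218 and 4117 TPM in HPCs. *HBZ*, the embryonic alpha-like chain, had 0 and 1.48 TPM in HEs and 86.8 and 519.77 in HPCs (log2 fold change 7.08, SE 0.78, adjusted p = 0.000308). Globin transcripts differed between the HPC replicates, at 0.461% of all TPM in replicate 1 and 1.40% in replicate 2, against under 0.006% in both HE libraries. *HBD*, a minor adult chain, had 0.640 and 1.67 TPM in HEs and 101 and 169.91 in HPCs. *HBB*, the adult chain, had 0 and 1.77 TPM in HEs and 11.6 and 9.74 in HPCs.

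The shares of the main beta-like chains were close in the HPC libraries despite their different totals, and those of the minor chains and of *HBZ* were not. *HBE1* made 45.6% and 47.9% of the beta-like TPM, *HBG1* with *HBG2* 51.0% and 50.1%, *HBD* 3.09% and 1.83%, and *HBB* 0.353% and 0.105%. *HBZ* made 6.65% and 11.2% of the alpha-like TPM.

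**Figure D4:**
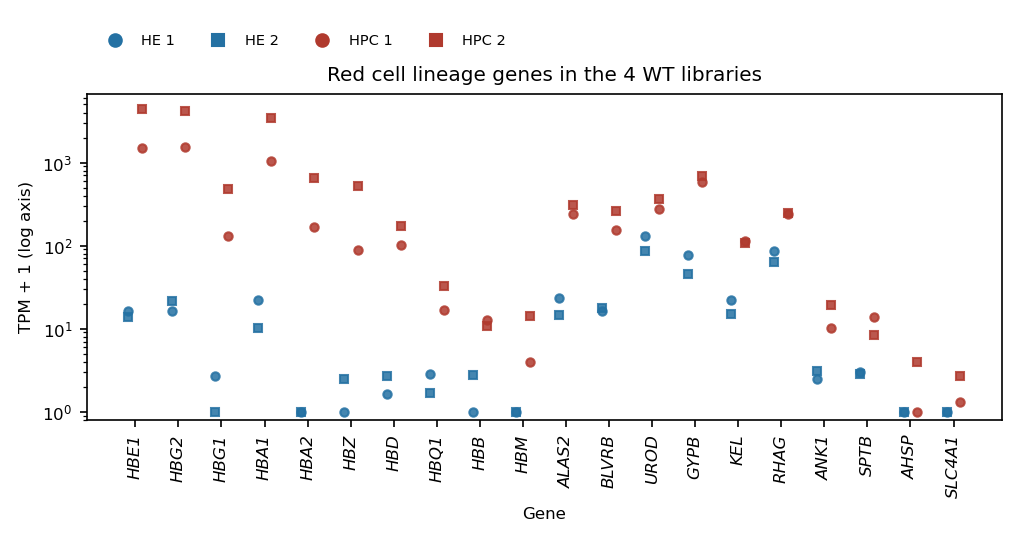
TPM + 1 (log axis) of 20 globin, heme and red cell membrane genes (x axis) in each WT library, with HEs in blue and HPCs in red, circles for replicate 1 and squares for replicate 2. The HPC points lie above the HE points for the genes from *HBE1* to *SPTB*, the squares of HPC replicate 2 lie above its circles for most globins, and *AHSP* and *SLC4A1*, at the right, are near 0.

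Heme and iron genes rose in 12 and fell in 0 of 16 tested, with a median of 1.01, against 4.81% that rose over all genes. *ALAS2*, the red cell form of the first heme enzyme, had 22.4 and 13.5 TPM in HEs and 241 and 309.83 in HPCs (log2 fold change 3.90, SE 0.40, adjusted p = 0.00023), while *ALAS1*, the form of other tissues, did not pass the threshold with 25.7 and 19.4 TPM in HEs and 23.5 and 19.2 in HPCs. Downstream, *UROD* had 130.44 and 86.01 TPM in HEs and 272 and 365 in HPCs (log2 fold change 1.56, SE 0.22, adjusted p = 0.00112). *FECH*, which inserts the iron, had 20.4 and 10.8 TPM in HEs and 35.6 and 35.8 in HPCs (log2 fold change 1.21, SE 0.32, adjusted p = 0.0324). *ALAD*, the second heme enzyme, was not past the threshold, with 18.9 and 19.3 TPM in HEs and 25.4 and 26.1 in HPCs. *BLVRB*, a reductase abundant in red cells, had 15.4 and 16.6 TPM in HEs and 155 and 261 in HPCs (log2 fold change 3.57, SE 0.31, adjusted p = 0.000121). *SLC25A37* (mitoferrin 1), which brings iron into mitochondria, had 61.8 and 53.2 TPM in HEs and 181 and 177 in HPCs (log2 fold change 1.62, SE 0.31, adjusted p = 0.0064). The number that rose was 6 without HE replicate 2 and 5 without HPC replicate 2. A single library ended the call of *FECH* without HE replicate 2, HPC replicate 1 or HPC replicate 2 (adjusted p 0.119 to 0.22) and *SLC25A37* without HE replicate 2 or HPC replicate 2 (adjusted p 0.0538 to 0.0612).

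Red cell surface and membrane skeleton genes rose in 11 and fell in 0 of 19 tested, against 4.81% that rose over all genes. The median was 1.72, and 3 of the 19 passed the filter in 1 stage only. Several were expressed in HEs already. *GYPB*, a glycophorin, had 75.1 and 44.5 TPM in HEs and 576 and 691 in HPCs (log2 fold change 3.42, SE 0.67, adjusted p = 0.00724), but *GYPB* and *GYPE* are near copies and may share reads. *RHAG*, the Rh-associated glycoprotein, had 84.3 and 62.4 TPM in HEs and 237 and 247 in HPCs (log2 fold change 1.72, SE 0.38, adjusted p = 0.0131). *KEL*, the Kell antigen, had 20.9 and 14.1 TPM in HEs and 112 and 106 in HPCs (log2 fold change 2.60, SE 0.39, adjusted p = 0.00179). *TFRC*, the transferrin receptor, had 33.6 and 28.9 TPM in HEs and 103 and 108 in HPCs (log2 fold change 1.73, SE 0.24, adjusted p = 0.000963). Genes of late red cells were low. *SLC4A1* (band 3) had 0 and 0 TPM in HEs and 0.310 and 1.68 in HPCs, and *AHSP*, the alpha globin chaperone, had 0 and 0 TPM in HEs and 0 and 2.96 in HPCs. *CA1* had 0 and 0 TPM in HEs and 1.21 and 0.700 in HPCs, and these 3 did not pass the filter. Without HE replicate 2, HPC replicate 1 or HPC replicate 2 the number that rose was 4, 6 or 5. With 1 library left out, the call was lost for *GYPB* without HE replicate 2 or HPC replicate 2 (adjusted p 0.0736 to 0.0745), *GYPE* without HE replicate 2, HPC replicate 1 or HPC replicate 2 (adjusted p 0.0745 to 0.11) and *RHAG* without HE replicate 2, HPC replicate 1 or HPC replicate 2 (adjusted p 0.07 to 0.109).

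Megakaryocyte and platelet genes rose in 12 and fell in 1 of 18 tested, against 4.81% and 9.33% over all genes. The median was 1.92, and 5 of the 18, including *PPBP* and *TUBB1*, passed the filter in 1 stage only. *PF4*, a platelet chemokine, had 37.3 and 32.1 TPM in HEs and 199.58 and 307 in HPCs (log2 fold change 2.80, SE 0.27, adjusted p = 0.000174). *GP1BA*, the von Willebrand factor receptor chain, had 15.9 and 11.7 TPM in HEs and 99.2 and 82.9 in HPCs (log2 fold change 2.65, SE 0.30, adjusted p = 0.000364). *SELP* (P-selectin) had 8.06 and 8.54 TPM in HEs and 36.1 and 33.5 in HPCs (log2 fold change 1.94, SE 0.32, adjusted p = 0.00291). *PPBP*, another platelet chemokine, and *TUBB1*, the platelet tubulin, rose to lower levels, with 0 and 0 TPM in HEs and 6.72 and 8.63 in HPCs for *PPBP* and 0 and 0 TPM in HEs and 1.81 and 4.61 in HPCs for *TUBB1*, both listed at 0 in HEs. *F2R*, a thrombin receptor also made by endothelium, was the gene that fell, with 259 and 205 TPM in HEs and 150.46 and 114 in HPCs. The threshold was missed by *PPBP* without HPC replicate 2 (adjusted p = 0.0593), *TUBB1* without HE replicate 1, HE replicate 2 or HPC replicate 2 (adjusted p 0.124 to 0.186) and *F2R* without HE replicate 1 or HPC replicate 2 (adjusted p 0.134 to 0.148).

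Of 24 listed granulocyte and monocyte genes 11 passed the filter, 1 of them through 1 stage only, and 4 rose and 0 fell. For this list and the 2 that follow, the shares over all genes were 4.81% that rose and 9.33% that fell. *CSF1R*, the macrophage growth factor receptor, had 6.92 and 2.55 TPM in HEs and 40.4 and 34.1 in HPCs (log2 fold change 2.84, SE 0.52, adjusted p = 0.00539). *CD33* had 8.93 and 6.28 TPM in HEs and 54.5 and 71.9 in HPCs (log2 fold change 2.90, SE 0.28, adjusted p = 0.000172), *CSF3R*, the granulocyte growth factor receptor, had 4.13 and 6.31 TPM in HEs and 26.97 and 26.7 in HPCs (log2 fold change 2.18, SE 0.58, adjusted p = 0.0309), and lysozyme (*LYZ*) had 12.8 and 13.5 TPM in HEs and 45.5 and 55.6 in HPCs (log2 fold change 1.86, SE 0.31, adjusted p = 0.00302). *ELANE*, *PRTN3*, *CD14*, *CD86*, *S100A8*, *S100A9*, *RNASE3* and *FCGR1A* were listed at 0 in all 4 libraries. *MPO* was at most 0.24 TPM. Of 12 mast cell, basophil and eosinophil genes 6 passed the filter, 2 of them, including *PRG2*, through 1 stage only. The 3 that rose were *HDC*, *GATA2* and *PRG2*, and *KIT* fell, while the tryptase genes *TPSAB1* and *TPSB2* were listed at 0 in all 4. Of 18 lymphoid genes 7 passed, and *CD7*, an early T and natural killer cell antigen, rose with 2.58 and 3.27 TPM in HEs and 21.7 and 28.4 in HPCs (log2 fold change 2.72, SE 0.47, adjusted p = 0.00351), as did *CD2* and *NKG7*, which passed the filter through HPCs only. *RAG1*, *RAG2* and *DNTT*, the recombination enzymes of lymphocytes, stayed under the filter. Of the granulocyte and monocyte list 2 rose without HE replicate 2, of the mast cell list 1 without any library but HPC replicate 1, and of the lymphoid list 1 without HE replicate 2 or HPC replicate 2. The call was not kept by *CSF1R* without HE replicate 2 (adjusted p = 0.06), *CSF3R* without any 1 of the 4 libraries (adjusted p 0.0955 to 0.172), *GATA2* without any 1 of the 4 libraries (adjusted p 0.0578 to 0.156) and *PRG2* without HE replicate 1, HE replicate 2 or HPC replicate 2 (adjusted p 0.147 to 0.216). It was also lost for *CD2* without HE replicate 1, HE replicate 2 or HPC replicate 2 (adjusted p 0.0551 to 0.113) and *NKG7* without HE replicate 2 or HPC replicate 2 (adjusted p 0.0558 to 0.0567).

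Among cytokine receptors and their signalling genes 5 rose and 3 fell of 20 tested, with a median of 0.43, against 4.81% that rose and 9.33% that fell over all genes. *KIT*, the stem cell factor receptor, had 21.8 and 23.2 TPM in HEs and 4.02 and 3.04 in HPCs (log2 fold change -2.38, SE 0.28, adjusted p = 0.000417). *KITLG*, its ligand, fell in the same libraries, with 49.04 and 36.8 TPM in HEs and 2.70 and 0.950 in HPCs (log2 fold change -4.02, SE 0.50, adjusted p = 0.000558). *SOCS3*, a feedback inhibitor of cytokine signals, had 74.1 and 79.4 TPM in HEs and 10.9 and 8.28 in HPCs (log2 fold change -2.88, SE 0.27, adjusted p = 0.000152). *STAT5A*, a signal carrier of these receptors, rose with 30.6 and 32.9 TPM in HEs and 86.6 and 66.95 in HPCs (log2 fold change 1.24, SE 0.30, adjusted p = 0.0196), while *STAT5B* and *JAK1* were not past the threshold, with 57.7 and 42.4 TPM in HEs and 58.5 and 57.1 in HPCs and 59.4 and 57.7 TPM in HEs and 54.9 and 39.8 in HPCs. The erythropoietin receptor *EPOR* had 15.9 and 14.4 TPM in HEs and 33.03 and 37.9 in HPCs and an adjusted p of 0.0806. Between 1 and 3 genes of the list rose without any 1 library. When single libraries were removed, the threshold was missed by *STAT5A* without any 1 of the 4 libraries (adjusted p 0.0599 to 0.123).

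Of 33 tested cell cycle genes 2 rose and 1 fell, with a median of 0.06, against 4.81% that rose and 9.33% that fell over all genes. These were 6.06% and 3.03% of the list, shares near or below those over all genes. Among the D-type cyclins, which carry growth signals to the cycle, *CCND3* rose, *CCND1* fell and *CCND2* was not called. *CCND1* had 345 and 305 TPM in HEs and 171 and 68.5 in HPCs (log2 fold change -1.57, SE 0.47, adjusted p = 0.0494). *CCND3* had 113 and 82.1 TPM in HEs and 416 and 390.10 in HPCs (log2 fold change 2.05, SE 0.22, adjusted p = 0.000293), and *CDKN2D*, an inhibitor of their kinases, rose with 10.98 and 12.9 TPM in HEs and 27.4 and 34.3 in HPCs. The fall of *CCND1* was near the threshold, and 7 other alternatives ended its call (adjusted p 0.0564 to 0.169). The proliferation antigen *MKI67* did not pass the threshold with 42.8 and 37.3 TPM in HEs and 28.3 and 17.8 in HPCs. Of 8 pluripotency genes 4 passed the filter and 0 changed. *NANOG* was listed at 0 in all 4 libraries. A single library ended the call of *CCND1* without HE replicate 1, HE replicate 2 or HPC replicate 2 (adjusted p 0.16 to 0.319) and *CDKN2D* without HE replicate 1 or HPC replicate 2 (adjusted p 0.0768 to 0.0806).

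The same contrast was made in the KO libraries, which share no library with the WT contrast but share the fit's estimate of spread and, in replicate 2, a suffix of the column headers. There 2851 of the 17113 genes (16.7%) changed, of which 1215 (7.1%) rose and 1636 (9.56%) fell. Risen genes made up 42.6% of these calls, and 54.9% when TPM was rescaled without globin and mitochondrial genes, a change that moved the KO median of all genes from 0.03 to 0.165. Of the 2420 genes called in WT, 2320 (95.9%) had the same sign in KO, against 72.1% of all genes tested. Both contrasts called 1738 genes with the same sign, which is 71.8% of the WT calls and 61% of the KO calls. The gene-level TPM of *GATA2* was 111 and 94.1 in KO HEs and 112 and 83.8 in KO HPCs, so it does not check the knockout.

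A test of the difference between the stage changes of the 2 genotypes called 0 genes in limma, with 988 genes at an unadjusted p under 0.05 (5.77%) and a smallest adjusted p of 0.323. *GATA2* itself had a log2 fold change of 1.40 in WT and -0.07 in KO, with a difference of 1.48 (SE 0.49, adjusted p = 0.743). The lists of red cell and platelet genes had positive medians in both genotypes, of 1.72 in WT and 2.05 in KO for the red cell list and 1.92 and 2.38 for the platelet list. *ITGB3* had 17.6 and 10.2 TPM in WT HEs and 3.87 and 1.08 TPM in KO HEs, against 171 and 161 TPM and 218 and 203 TPM in HPCs. Its difference between genotypes was not called in the same test (-2.52, SE 0.54, adjusted p = 0.489). Endothelial identity genes had medians of -2.72 and -2.6, and each of the 27 had the same sign in both genotypes.

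**Figure D5:**
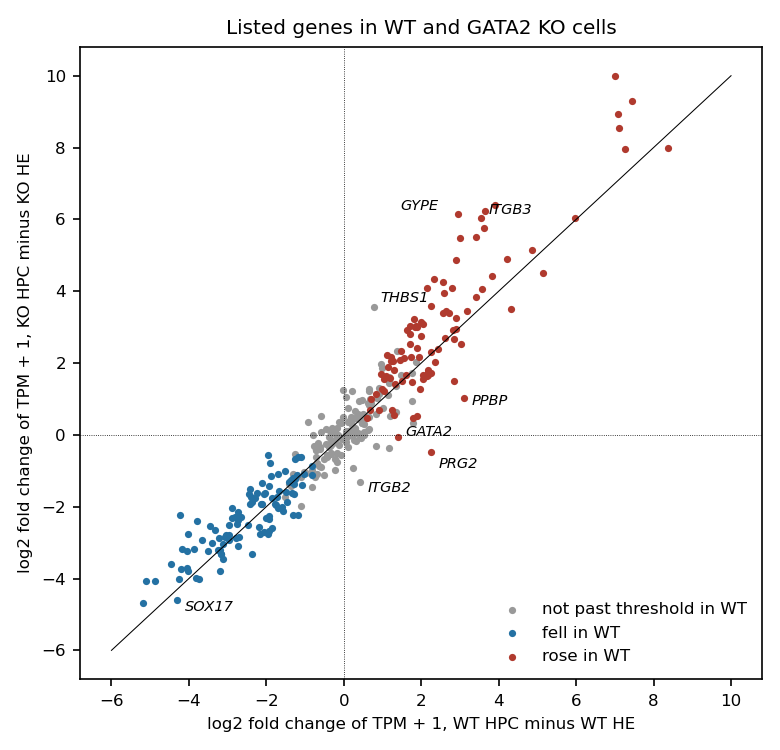
Log2 fold change of TPM + 1 from HEs to HPCs in WT (x axis) and in KO (y axis) cells for the tested genes of the 20 lists, n = 2 libraries per group. Colours give the WT call (red rose, blue fell, grey not past the threshold), the line marks equal change, and most genes lie in the same quadrant in both genotypes while *GATA2* lies at 1.40 in WT and -0.07 in KO.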

How the data were processed

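RNA-Seq was deposited as 1 gene table per library, with TPM values for 56266 Ensembl genes. Per the paper's methods, the authors made TruSeq libraries, sequenced single-end reads on a MiSeq, trimmed adapters with Trimmomatic, mapped reads to hg19 with Bowtie and computed the deposited TPM. The processing notes also name RSEM and mm10 without a role. Depth is unknown, because TPM keeps no read number.

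Log2(TPM + 1) of all 10 libraries in 5 groups was fitted with limma 3.58.1 in R 4.3.3 (eBayes with trend), so that the groups shared 1 estimate of spread. Genes that reached 1 TPM in 2 or more of the 4 WT libraries entered, and a Benjamini-Hochberg adjusted p under 0.05 was the threshold. The procedure was checked on simulated data. Gene lists were described by counts and medians with no list test. Named genes were those of the lists, the 15 largest rises and 15 largest falls (called, same sign in all 4 library pairs, mean TPM of at least 10 in the higher stage, at least 200 exonic bases) and the 10 highest of each stage. Members and lists were chosen with earlier results of these data known. Some genes of the lists are counted but not reported here by name. Promoter windows came from GRCh37 with GENCODE v44 annotation lifted to that build. Alternatives covered the libraries fitted, a replicate block, pseudocount, filters, normalization, variance trend, gene length (chosen after seeing the data) and each WT library left out.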

Additional observations from a re-analysis of the deposited data

How the results depend on the processing

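The WT count was 1780 with only the 4 WT libraries and 2150 with the 8 HE and HPC libraries in the fit, 2049 with a pseudocount of 0.1, and 2615 after quantile normalization. Without a filter on low genes 1700 of 33200 genes changed, 545 of which rose. With 1 WT library left out, the count lay between 1144 and 1778, with 352 to 457 genes that rose and 792 to 1382 that fell. In the KO contrast it was 2204 to 3268 over its alternatives, and the test of the difference between genotypes called 0 genes in each. The KO contrast and that test could not be fitted with the 4 WT libraries alone.

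Replicate numbers are shared between groups, and the column headers of replicate 2 in the 4 HE and HPC groups share a suffix whose meaning is not given, but 2 pairs do not establish pairing. The correlation of replicate deviations was 0.042 between WT HEs and WT HPCs and -0.01 to 0.15 over all pairs of groups. With the replicate block, 2682 genes changed, 924 up and 1758 down, and 2349 of the 2420 were kept. Of the named genes it ended the call of *PRG2* alone (adjusted p = 0.0547).

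Of 137 named genes past the threshold, 0 changed direction under the 16 alternatives, 97 kept their call in each, 38 lost it without some 1 library and 23 lost it in another setting. Those 23 were *CCND1*, *CD7*, *CDH5*, *CSF3R*, *F2R*, *FECH*, *GATA2*, *GYPB*, *GYPE*, *HOXB8*, *ITGA1*, *ITGA4*, *ITGAL*, *KLF1*, *LAPTM5*, *MECOM*, *MEIS1*, *POSTN*, *PRG2*, *RHAG*, *RUNX1*, *STAT5A* and *TUBB1*, and the cause was not tested. With a pseudocount of 0.1 the adjusted p was 0.0575 for *CDH5*, 0.0771 for *KLF1* and 0.148 for *GYPB*, and 11 blood transcription factors rose. *LYL1* passed the threshold with only the 4 WT libraries (adjusted p = 0.0264). *EPOR* passed it with these and with 8 libraries (0.0277 and 0.0232). *SMAD6* fell with the 4 WT libraries, a mean TPM of at least 5 or at least 200 exonic bases (0.0208 to 0.043).

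Some genes that were not past the threshold changed sign. Quantile normalization gave log2 fold changes of 0.05 for *ALAS1*, 0.09 for *GFI1* and 0.07 for *HOXB4*. Median centring gave 0.0019, 0.04 and 0.03 for the same genes, and leaving out globin and mitochondrial genes gave 0.02 for *GFI1* and 0.01 for *HOXB4*. Without 1 library, values ran from -0.26 to 0.12 for *ALAS1*, -0.48 to 0.41 for *GFI1*, -0.26 to 0.18 for *HOXB4*, -0.21 to 0.32 for *COL18A1*, -0.23 to 0.84 for *HES1* and -0.09 to 0.30 for *TAL1*. With 2 libraries a group and unknown depth, changes could be missed, and a gene not past the threshold is not shown to be unchanged.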

Other observations

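Genes outside the lists were picked after their values were seen. The spectrins of other tissues fell. *SPTAN1*, the alpha spectrin of non-erythroid cells, had 162 and 149 TPM in HEs and 8.67 and 5.04 in HPCs (log2 fold change -4.36, SE 0.23, adjusted p = 2.56e-05), and *SPTBN1*, its beta partner, had 317 and 266 TPM in HEs and 84.2 and 47.5 in HPCs (log2 fold change -2.18, SE 0.30, adjusted p = 0.0011). The red cell chain *SPTB* rose from a lower level, with 1.99 and 1.85 TPM in HEs and 12.8 and 7.43 in HPCs, and *ANK1*, the red cell ankyrin, had 1.48 and 2.10 TPM in HEs and 9.15 and 18.2 in HPCs (log2 fold change 2.33, SE 0.42, adjusted p = 0.00455). With 1 library left out, the call was lost for *SPTB* without HE replicate 1, HE replicate 2 or HPC replicate 1 (adjusted p 0.0669 to 0.091) and *ANK1* without HPC replicate 2 (adjusted p = 0.051).

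Apelin and its receptor act in vessel growth, and transcripts of both fell. The receptor gene *APLNR* had 462 and 378 TPM in HEs and 22.8 and 14 in HPCs (log2 fold change -4.47, SE 0.28, adjusted p = 3e-05) and the ligand gene *APLN* had 60.6 and 52.9 TPM in HEs and 2.02 and 1.73 in HPCs (log2 fold change -4.33, SE 0.38, adjusted p = 0.000119). Both fell in the KO cells too, to 20.5 and 13.6 TPM and 8.61 and 5.92 TPM in KO HPCs. Beside *COL24A1*, the cartilage collagen gene *COL2A1* rose, with 6.37 and 2.74 TPM in HEs and 104 and 81 in HPCs (log2 fold change 4.15, SE 0.41, adjusted p = 0.000194) in WT and 0.950 and 0.680 TPM in HEs and 33.96 and 28.95 TPM in HPCs of the KO line.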
